A study of Mus musculus with 6 samples.

Results

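This account covers 8 mouse genes that had been picked for a large difference between strains in a probe set of theirs, and compares all probe sets of each gene. They are Stk25, Adi1, Rpgrip1, Atp8a1, Nedd4, Sdc4, Wdfy1 and Cap1. All probe sets that the platform annotation assigns to these symbols were taken, 20 of 22626 probe sets in the table that are not array controls. Stk25 had 1 probe set, Atp8a1, Sdc4 and Cap1 had 2 each, Adi1, Nedd4 and Wdfy1 had 3 each, and Rpgrip1 had 4. Stk25 and Wdfy1 lie on chromosome 1, Sdc4 on chromosome 2, Cap1 on 4, Atp8a1 on 5, Nedd4 on 9, Adi1 on 12 and Rpgrip1 on 14.

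RNA from the stomach antrum, the lower and gastrin-producing end of the stomach, was hybridised to 6 Affymetrix expression arrays, 2 for each of the strains Satin, Beige and C57/BL6 (BL6). The series asks about gastric cell lineages in relation to the transcription factor FOXQ1. Satin mice are known as carriers of a Foxq1 mutation and Beige mice of a Lyst mutation, and Beige and BL6 are titled as controls. None of the strains is labelled as treated. The sources used here do not give age, sex or the background on which the Satin and Beige mutations were held, and whether an array holds RNA of 1 animal is not stated, so the spread between arrays may be partly technical.

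An array of this kind reads a transcript through a set of short probes that hybridise together and are summarised as 1 signal. A gene can have several probe sets, which may read different stretches or different splice and polyadenylation forms of its RNA. In the maker's naming, a suffix _a_at marks a set that reads several transcripts of 1 gene, and _x_at a set with probes that are also similar to other sequences. The 8 genes come from unrelated pathways. Stk25 encodes a kinase of the Golgi and of the STRIPAK phosphatase complex, Adi1 the dioxygenase of the methionine salvage pathway, Rpgrip1 a scaffold of the photoreceptor connecting cilium, and Atp8a1 a flippase that moves aminophospholipids to the cytosolic leaflet of membranes. Nedd4 encodes a HECT-type ubiquitin ligase, Sdc4 a heparan sulfate proteoglycan of focal adhesions, Wdfy1 an endosomal FYVE-domain protein, and Cap1 an actin-monomer binding protein that works with cofilin. The probe sequences themselves were not analysed here, and whether a base that differs between the strains lies under any of these probes was not tested.

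Values below are the deposited signals of single arrays unless a log2 scale is named. Differences are between strain means of quantile normalized log2(signal + 32) and carry the standard error (SE) of the fit. Their size is understated where signals are low. The median signal was 74.15 and 58.6 in Satin, 49.5 and 49 in Beige, and 47.6 and 38.2 in BL6. A raw signal on a Satin array therefore starts from a higher general level. BL6 replicate 1 stood apart with a 5' to 3' Gapdh ratio of 0.526, a measure of RNA integrity, against 0.988 to 1.18 on the other arrays. Antral mucosa markers were bright on all arrays (summed signal of 7 genes 49152.2 and 49256.5 in Satin, 50188.5 to 60517.1 in the control strains), although 2 of the 7 fell in Satin. Of these, Muc5ac read 471.8 and 435 in Satin and 7485.4 to 7948.7 in the control strains (difference -4.35), and Gast differed by -1.40. The summed signal of 5 pancreatic genes was 1582.3 in Satin, 2058 in Beige and 1986.5 in BL6 on the replicate 1 arrays, and 20875.5, 6481.3 and 40816.6 on the replicate 2 arrays of these strains. Of 6 leukocyte markers 2 rose in Satin by the threshold given below (summed signal of the list 3741.4 and 3699.4, against 491.5 to 1062.8 in the control strains). These were Igha and Jchain, of antibody-producing cells. Short of that threshold, Ptprc of leukocytes in general differed by 0.68 and Cd68 of macrophages by 0.28. Cd3e of T cells and Adgre1 of macrophages differed by -0.08 and 0.00. Of 6 intestinal markers, of which Cdx1 and Cdx2 read at most 8.6, Fabp2 fell by 4.62 (65 and 79.7 in Satin, against 1394.1 to 2409.6 in the control strains). Rbp2, Apoa1 and Vil1 differed by -1.16, -0.38 and -0.31, short of the threshold given below. All 7 smooth muscle markers were lower in Satin after normalization, from -1.53 in Des to -0.45 in Myl9, and 2 of them passed that threshold. Their summed raw signal was 5678.1 and 6696.8 in Satin, against 5503.5 to 12537.8 in the control strains. In bulk tissue, fewer cells of a type and less RNA per cell cannot be told apart, and the part of these cell types in the differences below was not tested.

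Of the 20 probe sets, 17 passed the filter on low signals. The values of all of them are described without a test, because the genes were picked on the same differences. A probe set is called here where its limma p, adjusted by Benjamini-Hochberg across the 15838 probe sets past the filter, was under 0.05. In Satin against the mean of both control strains, 4 of the 17 were higher and 5 lower by that threshold, from 7 of the 8 genes, while 0.347% of all probe sets tested were higher and 0.669% lower. The same counts held against Beige alone (0.196% of all higher, 0.461% lower) and against BL6 alone (0.183% and 0.354%). The 9 calls against Beige were 3 without Beige replicate 1 and 1 without Beige replicate 2, and 6 without either Satin array. These shares are given as background, and nothing is read from the members' count. After normalization both Satin arrays lay above all 4 control arrays in 5 of the 17 and below them in 5, while 11.7% and 11% of all probe sets, 22.7% in all, did so. The members' median difference was 0.19, and that of all probe sets 0.02. Just inside the threshold by size was Nedd4 1421955_a_at at 1.34, and just outside it Adi1 1449076_x_at at 0.80.

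**Figure D1:**
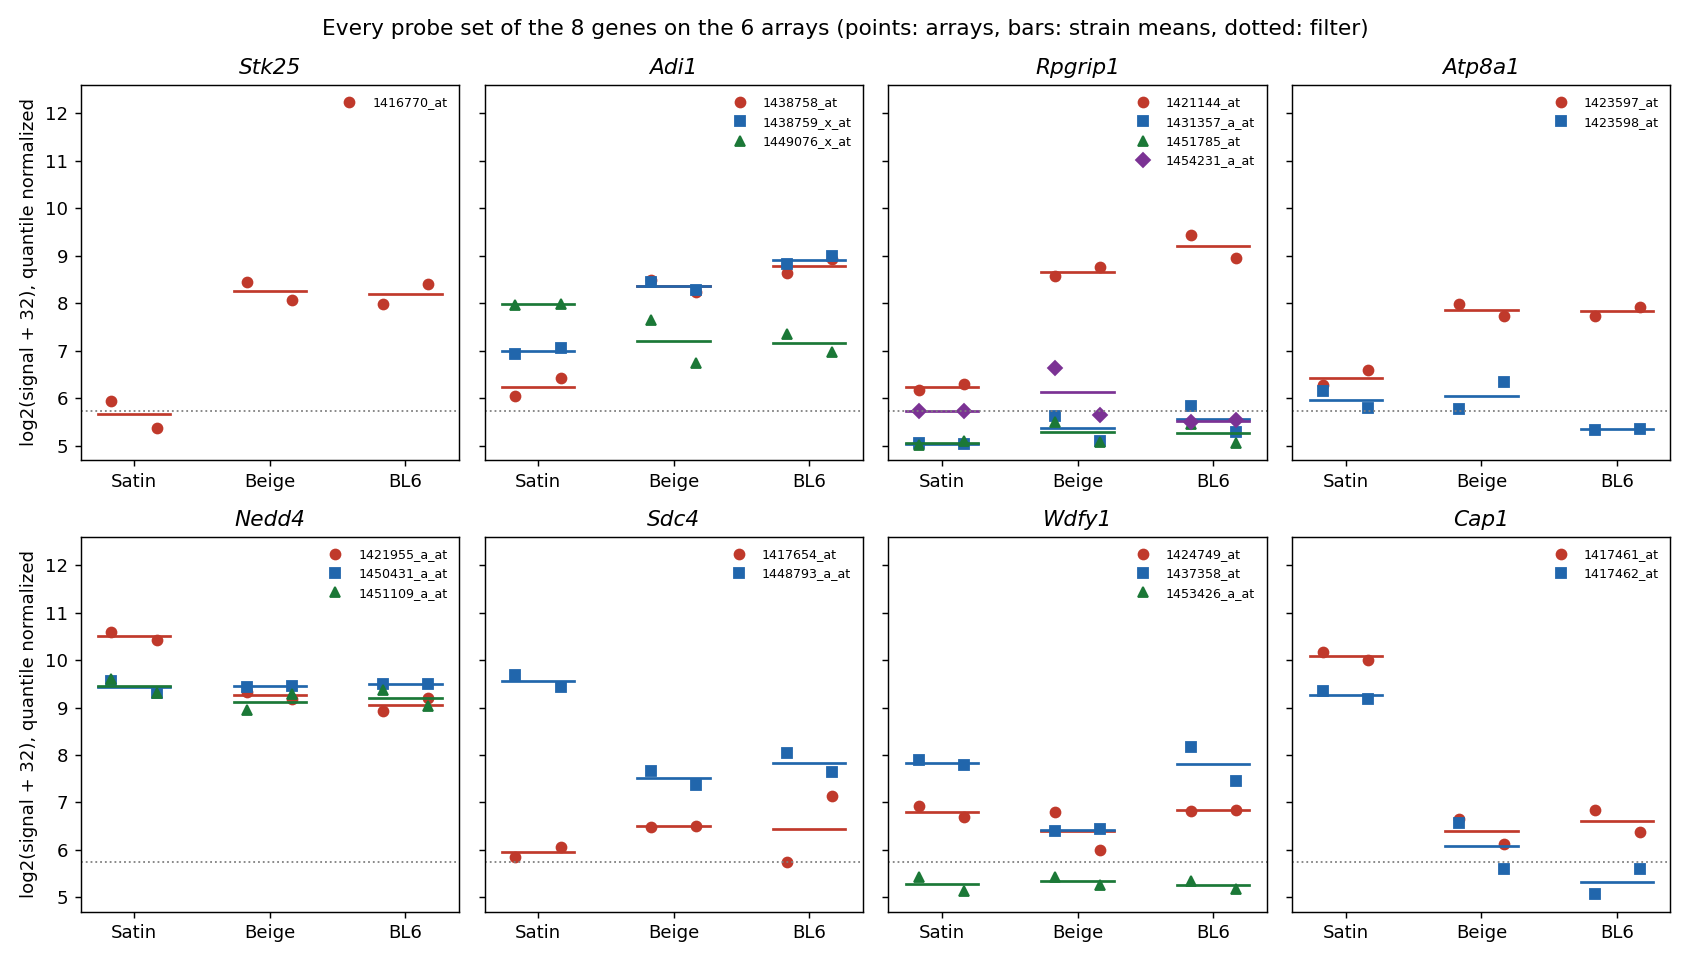
Each panel is a gene and each symbol a probe set. The y axis is the quantile normalized log2(signal + 32), points are single arrays in the order replicate 1 and 2, bars are strain means of 2 arrays, and the dotted line is the filter at 5.74. In Cap1 both probe sets are high in Satin, in Adi1 and Nedd4 bright probe sets of the gene part ways in Satin, and in Rpgrip1, Atp8a1 and Sdc4 the second probe sets lie low.

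Cap1 was the gene whose 2 probe sets, annotated to the same target record, gave the same answer. Probe set 1417461_at read 1455.3 and 1211.5 in Satin, 62.9 and 34.4 in Beige, and 71.2 and 37.0 in BL6. Probe set 1417462_at read 831.4 and 681.9 in Satin, 58.7 and 14.8 in Beige, and 1.7 and 11.8 in BL6. In each of them both Satin arrays were many times brighter than any control array. In 1417462_at the mean on the log2 scale was 5.33 in BL6 and 5.71 over both control strains, below the filter at 5.74. The Satin arrays lifted that set over the filter, which takes the mean of all arrays. In 1417461_at the means of both control strains were above the filter, the lower at 6.39. The differences between Satin and both controls were 3.60 (SE 0.22) and 3.55 (SE 0.30), which ranked 12 and 13 by size among the 15838 probe sets. On the array scale the log2 ratio of the 2 Cap1 probe sets was 0.84 on both Satin arrays. It was 0.08 and 0.54 in Beige, and 1.76 and 0.77 in BL6. The control ratios rest on the low and scattered control signals of 1417462_at. That the Satin ratio lay among them therefore does not show that the sets changed equally. What both sets show is a much higher signal on the Satin arrays. Over the 12 other settings and array omissions the difference of 1417461_at ran from 2.87 to 4.05, and that of 1417462_at from 2.47 to 3.97.

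Adi1 held probe sets of opposite direction, all of them above the filter. Probe set 1438758_at read 48.9 and 60.8 in Satin, 270.5 and 295.0 in Beige, and 285.6 and 368.1 in BL6. The set 1438759_x_at, annotated to the same target record, read 126.9 and 119.7 in Satin, 263.9 and 306.6 in Beige, and 327.2 and 383.0 in BL6. Both were thus lower on each Satin array than on any control array. In contrast, 1449076_x_at, annotated to another record, read 303.4 and 277.6 in Satin, 143.4 and 74.7 in Beige, and 107.4 and 72.3 in BL6. Here both Satin arrays were the highest, although this set was not called. The differences were -2.34 (SE 0.19), -1.65 (SE 0.16) and 0.80 (SE 0.26), and each kept its sign in the 12 other settings and omissions (-2.48 to -1.65, -1.72 to -1.17, and 0.56 to 1.33). The log2 ratio of 1438758_at to 1449076_x_at was -1.92 and -1.57 in Satin, 0.82 and 1.49 in Beige, and 1.28 and 1.96 in BL6. A factor common to a whole array leaves such a ratio nearly as it is, but quantile normalization, which shifts values by intensity, does not. The ratio differed between Satin and both controls by -3.13 after quantile normalization and by -3.28 with the arrays as deposited. It shows that the probe sets changed unequally, and not which of them measures the transcript.

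Nedd4 had 3 bright probe sets, of which a single one stood out. Probe set 1421955_a_at read 1893.6 and 1666.0 in Satin, 521.7 and 617.1 in Beige, and 354.0 and 443.8 in BL6. Annotated to the same transcript record, 1450431_a_at read 973.1 and 749.1 in Satin, 562.0 and 749.1 in Beige, and 538.0 and 557.2 in BL6. The third, 1451109_a_at, read 991.0 and 756.0 in Satin, 384.2 and 661.7 in Beige, and 494.3 and 395.6 in BL6. In the first set the Satin arrays lay far above all others, while in the normalized values of the other two the strains overlapped. The differences were 1.34 (SE 0.15), -0.04 (SE 0.14) and 0.29 (SE 0.17). With the arrays as deposited, where the median probe set itself was 0.43 higher in Satin, they were 1.83, 0.50 and 0.83, so the sign of the second value depends on the scaling. The log2 ratio of 1421955_a_at to 1450431_a_at was 1.03 and 1.12 in Satin, -0.10 and -0.28 in Beige, and -0.55 and -0.31 in BL6. Against 1451109_a_at it was 0.99 and 1.11 in Satin, 0.39 and -0.11 in Beige, and -0.44 and 0.15 in BL6.

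For Sdc4 the bright probe set was higher in Satin, and the dim one overlapped between the strains, although the annotation gives both the same target record. Probe set 1448793_a_at read 1061.0 and 823.7 in Satin, 144.2 and 137.9 in Beige, and 185.8 and 131.3 in BL6. Probe set 1417654_at read 37.7 and 37.3 in Satin, 54.2 and 56.8 in Beige, and 20.3 and 84.3 in BL6. All Satin values of the first set were above all control values, and in the second set BL6 spanned the values of the other strains. The differences were 1.89 (SE 0.19) and -0.52 (SE 0.37). On single arrays the log2 ratio of the dim to the bright set was -3.84 and -3.39 in Satin, -1.17 and -0.85 in Beige, and -2.29 and -0.50 in BL6. The lower of the BL6 ratios is that of replicate 1, the array with the low Gapdh ratio, and without that array the difference of the dim set was -0.89, while without BL6 replicate 2 it was -0.17.

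Rpgrip1 was measured by 4 probe sets, and a single one was bright. Probe set 1421144_at read 57.8 and 51.4 in Satin, 289.1 and 445.7 in Beige, and 520.7 and 372.9 in BL6, lower on both Satin arrays than on any control array. The difference was -2.70 (SE 0.19), with a range of -2.83 to -1.96 over the other settings and omissions. Of the other 3, only 1454231_a_at passed the filter, with 30.8 and 23.2 in Satin, 61.6 and 16.1 in Beige, and 11.3 and 10.5 in BL6, and a difference of -0.09 (SE 0.35). Its log2 mean was 5.73 in Satin and 5.52 in BL6, both below the filter at 5.74, and 6.13 in Beige. A set this dim has little room to show a fall. Probe set 1431357_a_at read 1.4 and 0.9 in Satin, 16.6 and 2.1 in Beige, and 23.8 and 5.3 in BL6. The fourth, 1451785_at, read 0.6 and 2.1 in Satin, 11.8 and 1.6 in Beige, and 9.9 and 0.9 in BL6. These 2 did not pass the filter, so their differences of -0.42 and -0.22 carry no SE. All 3 dim sets read below 51.4, the lowest value of the bright set, on every array, except 1454231_a_at on Beige replicate 1.

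Atp8a1, like Rpgrip1, had a brighter set that was low in Satin and a dim set that was not. Probe set 1423597_at read 64.9 and 74.7 in Satin, 182.8 and 192.2 in Beige, and 147.9 and 166.5 in BL6. Probe set 1423598_at, annotated to the same target record, read 55.0 and 25.1 in Satin, 21.8 and 45.4 in Beige, and 6.8 and 6.9 in BL6. The first was below all control arrays in Satin by -1.41 (SE 0.19), and the second overlapped between Satin and Beige, with a difference of 0.27 (SE 0.32) from both controls. Their log2 ratio was 0.14 and 0.81 in Satin, 2.22 and 1.40 in Beige, and 2.41 and 2.56 in BL6. The log2 mean of 1423598_at was 5.35 in BL6 and 5.70 over both control strains, below the filter at 5.74. A fall in Satin could hardly have shown in that set, so the ratio does not show that the sets disagree.

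Stk25 has no second probe set with its single symbol, so nothing in the table can be set beside its value. Probe set 1416770_at read 43.0 and 11.4 in Satin, 262.6 and 257.8 in Beige, and 178.9 and 244.8 in BL6. Both Satin arrays were far below the others. The difference was -2.57 (SE 0.24, 5.94-fold on this scale). It ran from -2.80 to -1.63 over the other settings and omissions. The mean in Satin, 5.66, lay below the filter.

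Wdfy1 differed in another strain. Probe set 1437358_at read 284.9 and 236.3 in Satin, 49.4 and 51.9 in Beige, and 205.8 and 112.1 in BL6. It was low on both Beige arrays, and Satin and BL6 did not differ beyond their spread (log2 means 7.84 ± 0.06 and 7.82 ± 0.51, SD, n = 2 each). Beige minus BL6 was -1.40 (SE 0.26) and Satin minus Beige 1.43 (SE 0.26). In Beige against BL6, 0 of the 17 probe sets was called, as was 0% of all probe sets tested with limma (820 had an unadjusted p under 0.05). Without BL6 replicate 1 or BL6 replicate 2, 11 and 8 probe sets of the whole table were called there. The second set, 1424749_at, read 125.6 and 83.1 in Satin, 71.6 and 28.6 in Beige, and 70.3 and 62.7 in BL6, with a Beige minus BL6 difference of -0.43 (SE 0.31), and the SD of its Beige arrays alone was 0.57. Leaving out single arrays moved it between -0.85 and -0.03. The third set, 1453426_a_at, read 15.6 and 3.2 in Satin, 9.3 and 6.0 in Beige, and 7.2 and 3.0 in BL6, and did not pass the filter.

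Between the control strains, and Wdfy1 aside, the widest differences lay in dim probe sets. Beige minus BL6 was 0.75 (SE 0.35) in Cap1 1417462_at, 0.70 (SE 0.37) in Atp8a1 1423598_at and 0.61 (SE 0.41) in Rpgrip1 1454231_a_at. Among the 5 sets called low in Satin, Beige minus BL6 ran from -0.54 in Rpgrip1 1421144_at (SE 0.22) and Adi1 1438759_x_at (SE 0.19) to 0.06 in Stk25 (SE 0.28). Satin differed from each control strain by a like amount in Stk25 (-2.60 from Beige, -2.54 from BL6) and Atp8a1 1423597_at (-1.42 and -1.40). For Adi1 1438758_at the values were -2.12 from Beige and -2.55 from BL6, and for Rpgrip1 1421144_at they were -2.43 and -2.97. All Satin comparisons share the Satin arrays, so these values are no independent repeats.

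**Figure D2:**
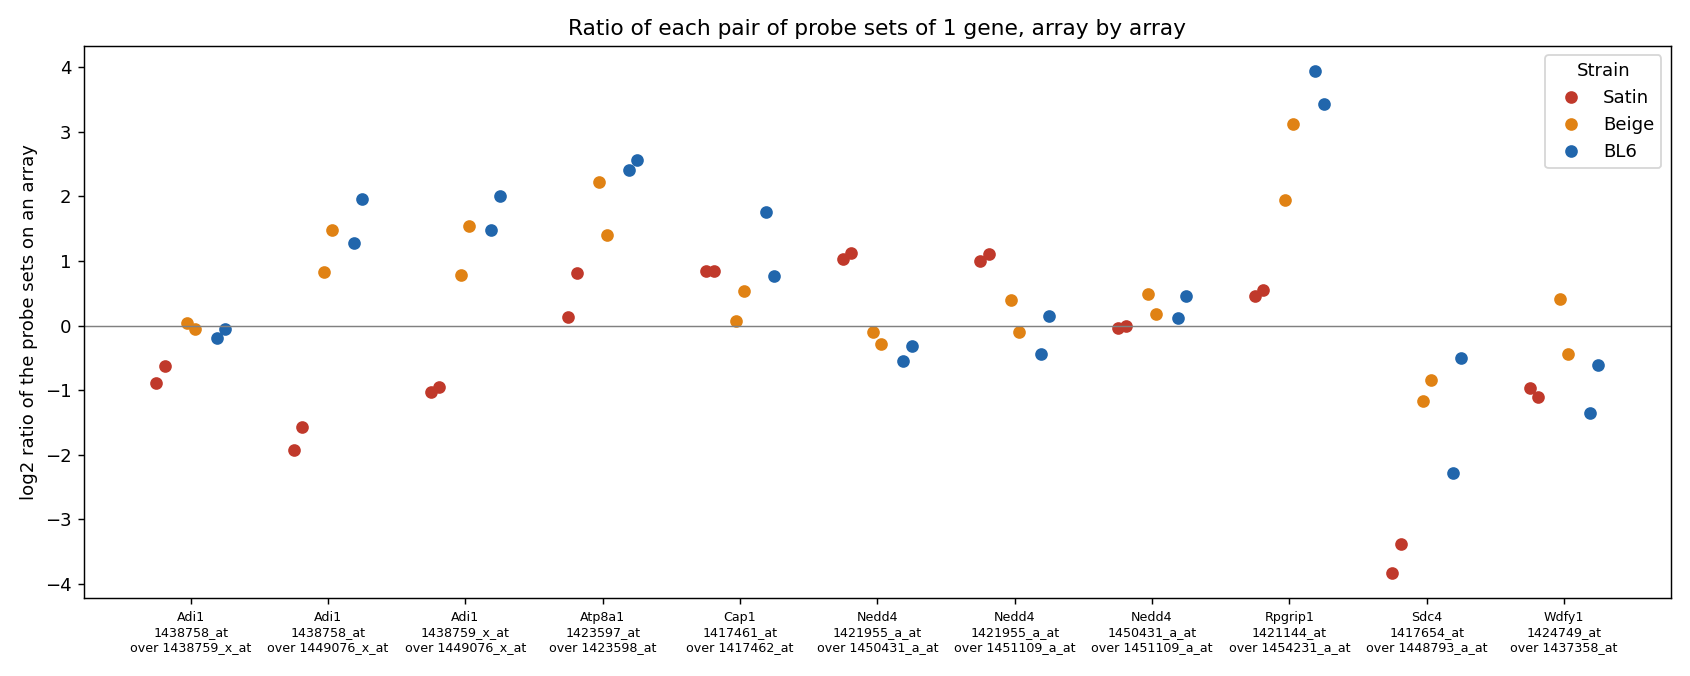
The y axis is the log2 ratio of 2 probe sets of a gene on 1 array, after normalization, for the 11 pairs in which both sets passed the filter. Points are arrays, coloured by strain, Satin at the left of each pair. The Satin points lie clear of all control points in the Adi1 pairs, in Atp8a1, in Rpgrip1, in Sdc4 and in the Nedd4 pairs, and among the control points in Cap1 and Wdfy1. In Cap1 the control points rest on a set that was dim in the control strains. For Nedd4 1450431_a_at over 1451109_a_at the gap is narrow, from -0.01 in Satin to 0.12 in BL6. The share of all pairs with such a gap was not measured, while 22.7% of single probe sets had one. Nothing is read from the number of pairs that do.

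How often probe sets of a gene part ways was measured over the whole table. There were 7816 pairs of probe sets past the filter that share a single gene symbol, from 3372 genes, and the ratio of each pair was tested between strains with limma. In Satin against both controls 25 pairs from 15 genes were called (0.32%), and 4 of the 11 pairs of the members were among them, 2 from Adi1, 1 from Rpgrip1 and 1 from Nedd4. These 3 genes had been picked for that contrast, and the other 12 genes stand against 3365 with a pair that are not members. Pairs annotated to the same target record were called in 0.299% of 3342, and other pairs in 0.335% of 4474. With the replicate number as a block 46 pairs were called, and without the intensity trend 5. Leaving out an array gave 7 pairs without either Satin array, 11 without either Beige array, 41 without BL6 replicate 1 and 86 without BL6 replicate 2.

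Across the 3372 genes, the median gap between the highest and the lowest difference of a gene's probe sets was 0.30, and 95% of the gaps were below 0.93. By that gap Adi1 (3.13) ranked 1, Rpgrip1 (2.61) 5, Sdc4 (2.41) 6, Atp8a1 (1.68) 21 and Nedd4 (1.38) 36. Wdfy1 (0.54) ranked 777 and Cap1 (0.05) 3110. The ranks restate the choice of the genes and are no test of it. Those of Rpgrip1 and Atp8a1 rest on a dim set with little room to fall. The rank of Cap1 rests on a set that was dim in the control strains. Outside the members, 51 genes had a called probe set and a further one past the filter. In 8 of these (15.7%) a further set was called in the same direction, in 1 a set was called in the opposite direction, and in 42 none was called. A further set pointed the other way in 19 (37.3%), and gave less than 0.25 of the largest difference, or the other sign, in 26 (51.0%). A further probe set with a much smaller or opposite difference was thus common among genes called in this table, the members left out. The largest difference of each gene was picked from the same data, and dim sets past the filter were counted. The share therefore does not show which sets measure the transcript.

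The whole-table counts depend on the scaling and on single arrays. In Satin against both controls 161 probe sets were called, 55 higher and 106 lower (1864 with an unadjusted p under 0.05). With the arrays as deposited there were 1946 higher and 70 lower, and with median centring, which leaves the median probe set 0.10 higher in Satin, 60 and 52. Without Satin replicate 1 or 2 the count was 55 and 84, without Beige replicate 1 or 2 it was 55 and 48, and without BL6 replicate 2 it was 403. Among the members' probe sets, the omissions left 7 to 9 called against both controls, 1 to 10 against Beige and 6 to 9 against BL6.

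**Figure D3:**
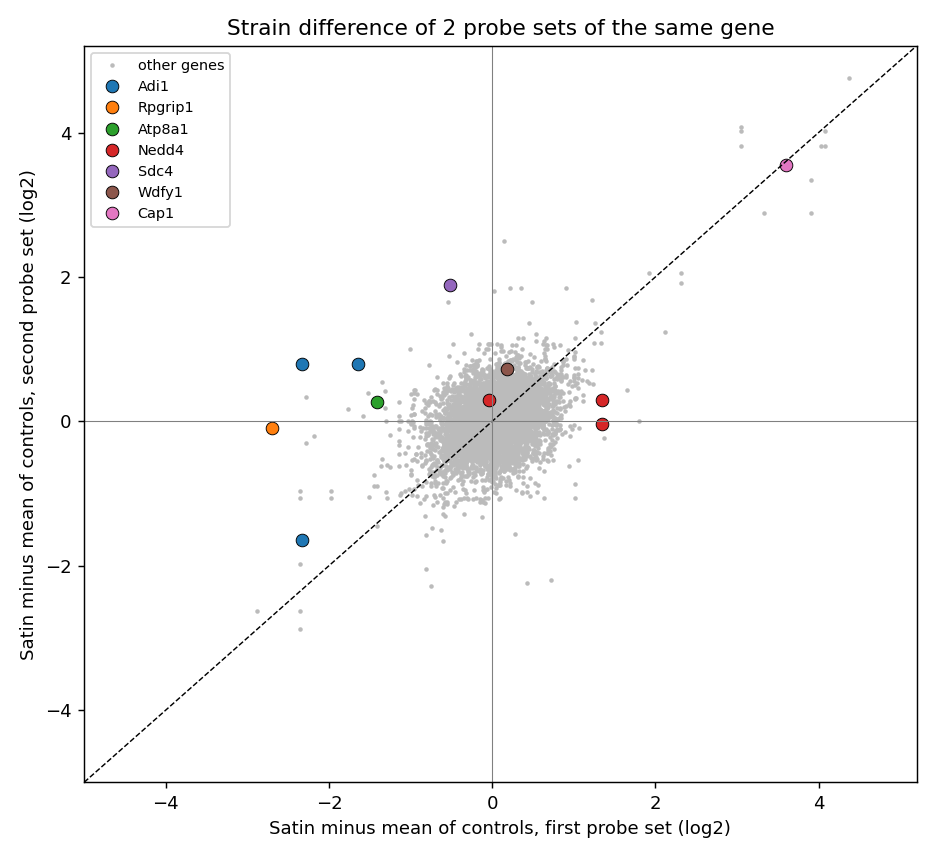
Each point is a pair of probe sets of 1 gene, placed by the difference of its first set (x axis, in the order of probe set names) and of its second (y axis), Satin minus the mean of both controls, in log2 units. Cap1 lies on the dashed line of equal differences, at 3.60 and 3.55, while pairs of Adi1, Rpgrip1, Atp8a1, Sdc4 and Nedd4 lie far from it, with other genes (grey) scattered there too.

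Partner genes of the same pathways, drawn from general knowledge of each protein, were examined next. Of 107 genes listed, 81 were on the array under a single symbol and 76 passed the filter, with 131 probe sets. By limma 0 of the 131 was called in Satin against both controls, where 1.02% of all probe sets were, and 20 had an unadjusted p under 0.05. Their median difference was 0.03, against 0.02 over all probe sets, and values ran from -0.91 to 1.14. Against Beige (0.657% of all probe sets called) and against BL6 (0.537%) 0 was called as well, with 10 and 19 at an unadjusted p under 0.05. With the arrays as deposited 25 were called against both controls and 26 against BL6. Without BL6 replicate 2 the counts were 4 and 5.

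The smallest p among the partners belonged to Dstn, which encodes destrin, an actin-depolymerizing relative of cofilin listed with Cap1. Its probe set 1417124_at read 2431.3 and 2552 in Satin, 2713.7 and 4178.4 in Beige, and 3411.9 and 2930.9 in BL6, lower on the Satin arrays. The difference of -0.80 (SE 0.17) missed the threshold by limma (adjusted p = 0.0765, and 0.0169 to 0.597 over the alternatives, passing only without BL6 replicate 2). Cfl1, the gene of cofilin itself, had 2 probe sets that differed by 0.51 (SE 0.16) and -0.05 (SE 0.18) between Satin and both controls. Against BL6 its set 1448346_at differed by 0.73 (limma adjusted p = 0.167). Over the alternatives that adjusted p was 0.00514 to 0.780, and it passed with the arrays as deposited (0.00514) and without BL6 replicate 2 (0.0293). Among the syndecans and their partners, Sdc1, an epithelial syndecan, had 4 probe sets, at -0.62 (limma adjusted p = 0.182), -0.43, -0.22 and -0.05, none of them called. In Beige against BL6 the smallest p belonged to Mob4, of the STRIPAK complex (0.54), and Sdc1 1437279_x_at (-0.72), both with a limma adjusted p of 0.859.

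By member, the partners of Stk25 had a median difference of 0.14 over 29 probe sets, those of Adi1 0.17 over 17, those of Rpgrip1 0.10 over 2, and those of Atp8a1 0.12 over 12. For Nedd4 the median was 0.04 over 15, for Sdc4 -0.12 over 22, for Wdfy1 -0.08 over 10 and for Cap1 -0.05 over 24. Over all probe sets it was 0.02.

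**Figure D4:**
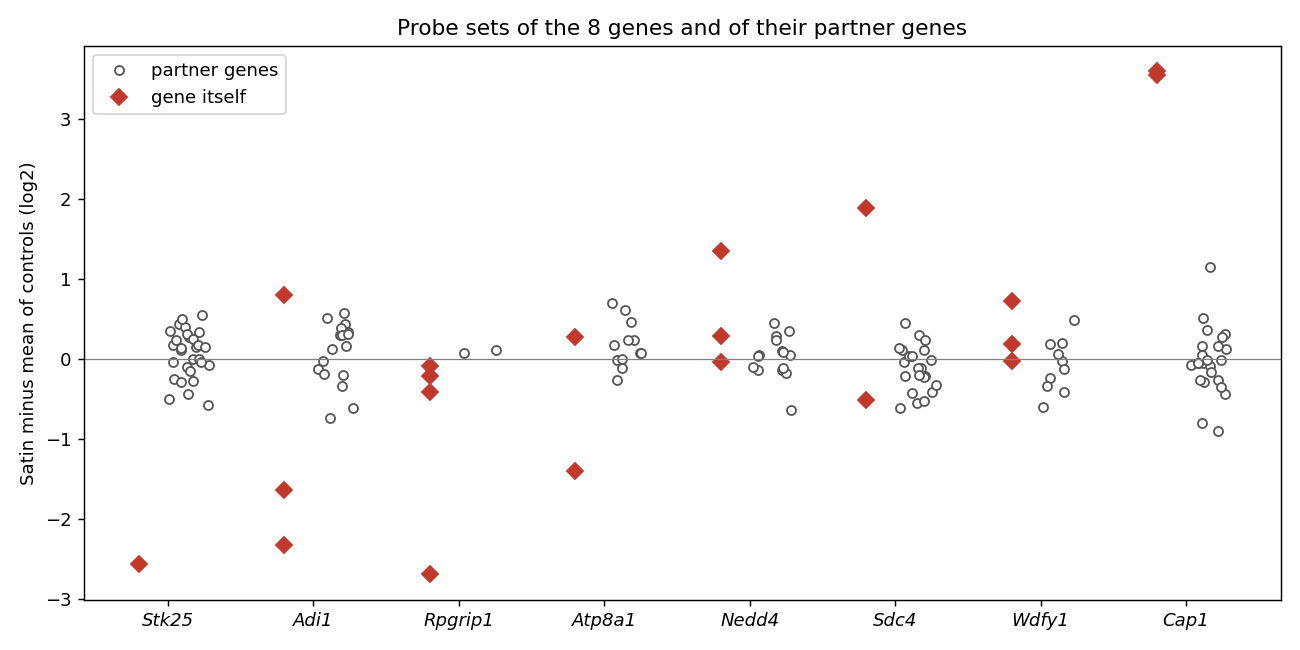
The y axis is Satin minus the mean of both controls, in log2 units. Red diamonds are probe sets of the named gene and open circles probe sets of its partner genes, which lie between -0.91 and 1.14, with 0 called.

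The genes next to each member on its chromosome were compared in the same way, as the 10 nearest measured genes on each side in the gene order of assembly GRCm38.p6. There were 160 such genes with 255 probe sets. In Satin against both controls 2 of the 255 were called (0.784%), both lower, against 1.02% of all probe sets. Their median difference was 0.01, and 40 had an unadjusted p under 0.05. Around the other 7 members 0 probe sets were called by limma in that comparison.

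Both calls belonged to Serinc3, which encodes a multipass membrane protein of the serine incorporator family and is the tenth measured gene on one side of Sdc4. Probe set 1455550_x_at read 783.4 and 587.8 in Satin, 981 and 1366.2 in Beige, and 1102.2 and 1425.7 in BL6. Probe set 1417815_a_at read 751.3 and 594.2 in Satin, 654.3 and 972.2 in Beige, and 809.1 and 877.9 in BL6. The Satin arrays were lowest in the first set and overlapped Beige in the raw signal of the second. The fall was -1.31 (SE 0.15, limma adjusted p = 0.00348) in 1455550_x_at, and the limma adjusted p was 0.00377 to 0.061 over the alternatives. That call was lost with median centring (0.061), without the intensity trend (0.0603) and without Beige replicate 2 (0.0555). For 1417815_a_at the fall was -0.82 (SE 0.14, limma adjusted p = 0.0323), with 0.0249 to 0.356 over the alternatives. It was lost in 8 of 12, among them the replicate block (0.0555), the arrays as deposited (0.356) and the omission of Satin replicate 1 (0.187), Satin replicate 2 (0.272), Beige replicate 1 (0.151) or Beige replicate 2 (0.172).

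The other probe sets of Serinc3 were not called. Of these 1456080_a_at read 573.8 and 462.7 in Satin, 288.9 and 492.7 in Beige, and 150.1 and 377 in BL6, a difference of 0.19 (SE 0.29, limma adjusted p = 0.862). The dim sets 1417816_s_at and 1448847_at differed by -0.57 (SE 0.39) and 0.16, the second without passing the filter. In Beige against BL6 0 neighbour was called by limma, with 7 of 255 at an unadjusted p under 0.05. The smallest p there belonged to Myzap, a gene of a cell-junction protein near Nedd4 (0.73), and Dld, the gene of dihydrolipoamide dehydrogenase near Adi1 (0.54), both with an adjusted p of 0.859.

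**Figure D5:**
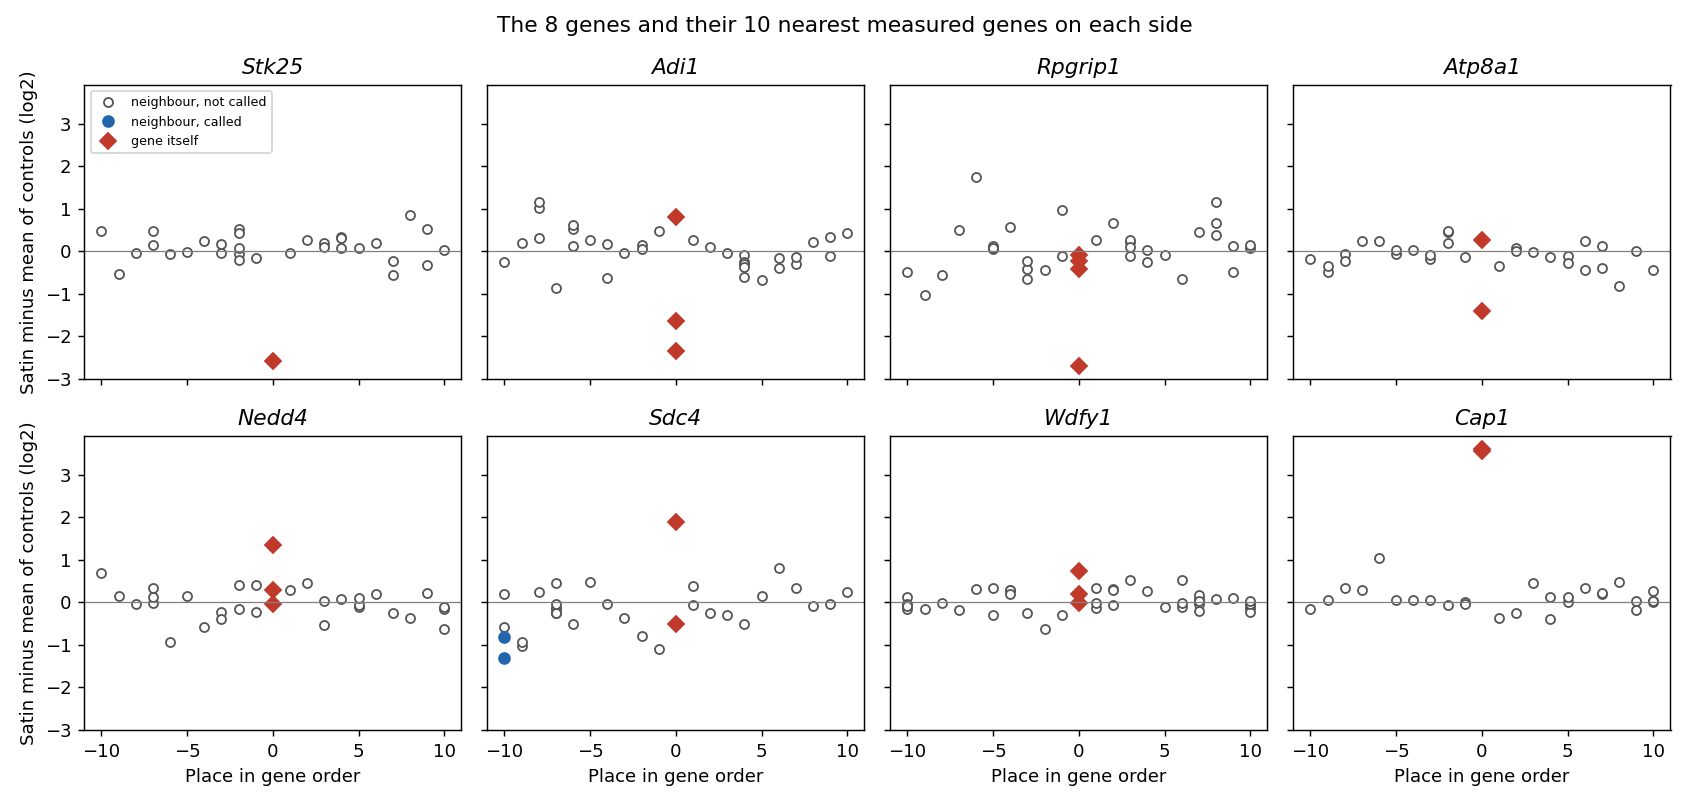
Each panel shows a member (red diamonds, at place 0) and its 10 nearest measured genes on each side, in the order of the chromosome. The y axis is Satin minus the mean of both controls in log2 units. Filled blue circles are the 2 called probe sets, both of Serinc3 at the left end of the Sdc4 panel, and open circles are not called.

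Finally, the probe sets of other genes whose profile over the 6 arrays was closest to that of each member's widest-ranging probe set were listed, by the root mean square (RMS) distance of the centred log2 values. These are descriptions over 6 arrays and share all normalization with the members. Closest to Stk25 were Prdx2 1430979_a_at, of a peroxiredoxin (distance 0.24, r = 0.99), and C1qtnf12 1417393_a_at (0.26, r = 0.98). Adi1 1438758_at had Ly6g6c (0.23, r = 0.99) and the same Prdx2 set (0.26, r = 0.97). To Rpgrip1 the closest were Psmd6 1423696_a_at, of a proteasome lid subunit (0.34, r = 0.98), and Chgb, of a granin (0.34, r = 0.97). For Atp8a1 1423597_at they were Psapl1 (0.0554, r = 0.998) and Homer2 (0.0757, r = 0.997). Nedd4 1421955_a_at lay closest to Gnb1 1454696_at, of a G protein beta subunit (0.0750, r = 0.996), and Gsr 1421816_at, of glutathione reductase (0.13, r = 0.99). Sdc4 1448793_a_at had Ptp4a2 1435129_at, of a phosphatase (0.17, r = 0.99), and Rab3b (0.28, r = 0.95). Wdfy1 had Sox4 1419155_a_at (0.19, r = 0.96) and Ube4a 1425278_at (0.23, r = 0.99), and Cap1 1417462_at had the pepsinogen gene Pga5 (0.35, r = 0.99) and the claudin gene Cldn3 (0.41, r = 0.98). Median distances to all other probe sets were 0.68 to 1.74.

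Of these 15 look-alike genes, 9 had more than 1 probe set past the filter, and those sets had the same sign in 7 genes and opposite signs in 2, Prdx2 and Ptp4a2. Prdx2 1430979_a_at read 5.1 and 3 in Satin, 124.9 and 139.2 in Beige, and 85.4 and 126.1 in BL6. The brighter Prdx2 set 1418506_a_at read 1379.6 and 1144.9 in Satin, 677.6 and 840.8 in Beige, and 442.7 and 641.1 in BL6. The first was lowest and the second highest in Satin, with differences of -2.24 (SE 0.24) and 0.43 (SE 0.16). Psmd6 1423696_a_at differed by -2.18 (SE 0.23), and the brighter Psmd6 1423697_at, at 809 and 783.4 in Satin, 624.2 and 780.4 in Beige, and 569.2 and 554.4 in BL6, differed by -0.20 (SE 0.13). Ptp4a2 1435129_at differed by 1.65 (SE 0.14), and the gene's other 3 sets by 0.48, 0.44 and -0.55. The sets past the filter had 1 sign in Cldn3 (3.05 to 4.07), C1qtnf12 (-2.35 to -0.97), Gnb1 (0.54 and 1.21), Gsr (0.56 and 1.16), Sox4 (0.28 to 1.11) and Ube4a (0.20 to 0.57), as in Psmd6. As with the members, these genes were found by the same differences, so the values are given as descriptions.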

How the data were processed

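The authors' deposited table holds intensities on a linear scale, 1 for each probe set on each array. The step from probes to signals, and any scaling, is not given in the sources used. Of its sample columns 0 were left unused. The 8 genes, the partner lists and the tests were chosen with earlier results of these data known. The 64 array controls were left out. Signals were converted to log2(signal + 32), quantile normalized, and the dimmest 30% by mean (below 5.74) left out. All 15838 remaining probe sets were tested apart in limma 3.58.1 (R 4.3.3; lmFit, eBayes with intensity trend, two-sided) with strain as the factor, 3 residual degrees of freedom, 8.95 after moderation. Pairs of probe sets of a gene were fitted as log2 ratios in the same way. With 2 arrays a strain, precision is limited by their number. Symbols came from the platform annotation (20380 probe sets with a single symbol, 691 with several, 1555 not listed), and 20351 matched the GRCm38.p6 gene table, used for names, chromosomes and gene order. Named besides the members were called partners and neighbours (otherwise the 2 with the smallest p per comparison) and the 2 closest profiles per member; other probe sets of these genes were added after their values were seen. Same-numbered arrays deviated together (correlations of 0.21, 0.31 and 0.14 across probe sets for Satin with Beige, Satin with BL6, and Beige with BL6), though the titles give no shared animal or day. The fit was tested on simulated data.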

Additional observations from a re-analysis of the deposited data

How the results depend on the processing

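The limits are the 2 arrays per strain, an unknown signal algorithm and the choice of the members on these values. Of the members' 20 probe sets, those called kept their sign in Satin against both controls under all 12 alternatives. Counts are given in the order Satin against both controls, against Beige, and against BL6. The members' called probe sets, 9, 9 and 9, were 7, 6 and 6 without the trend and 12, 8 and 11 with the arrays as deposited. In the other settings with all arrays kept they were 8 or 9. Called probe sets, 161, 104 and 85, were 2016, 198 and 2679 with the arrays as deposited (1 in Beige against BL6, where it was 0), 101, 56 and 48 without the filter, and 48, 31 and 24 without the trend. Called pairs, 25, 9 and 21, were 5, 0 and 3 without the trend and 46, 23 and 42 with the replicate block, and 14 against Beige with a pseudocount of 100. Called partner probe sets, 0 in each comparison, were 25 against both controls and 26 against BL6 as deposited. Called neighbour probe sets, 2, 1 and 2, were 36, 6 and 42 as deposited, 1, 0 and 0 with median centring, 0, 0 and 0 without the trend, 1 against BL6 without the filter, and 1 against both controls and 1 against BL6 with the replicate block. Leaving out single arrays gave 48 to 403, 9 to 173 and 33 to 407 probe sets (0 to 11 in Beige against BL6), 7 to 86, 0 to 28 and 5 to 228 pairs (0 to 20), 0 to 4 and 0 to 5 partner probe sets against both controls and against BL6, and 0 to 7, 0 to 1 and 1 to 6 neighbour probe sets. With a Satin, Beige or BL6 array left out, the lone array of that strain is assumed to vary like the others. The causes of these changes were not tested. An omission also leaves fewer arrays, and a run without the filter also has more tests.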
